A study of Mus musculus with 12 samples.

Results

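The Krüppel-like factors other than Klf1 were examined at 10 genes, Klf2, Klf3, Klf4, Klf5, Klf6, Klf7, Klf9, Klf10, Klf12 and Klf13. Their members were the peaks whose gene name, as given in the annotation of the pooled peak list, was 1 of these 10 symbols. This rule found 163 of the 84243 peaks, and 10 of the 19040 gene names. The peaks come from ATAC-seq, in which a transposase cuts and tags DNA that is open in the nucleus, so that a peak is a stretch of accessible chromatin. The study profiled 12 samples, 2 replicates of each of 6 cell types: hematopoietic stem cells (HSC), megakaryocyte progenitors (MkP), erythroid progenitors (EP), granulocyte and macrophage cells (GM), B cells and T cells. All were sorted by surface markers from wild-type C57BL/6 mice aged 8 to 12 weeks, from bone marrow, or for the T cells from thymus, with no transgene or treatment. The deposited list is 1 set of peaks for all 6 cell types together. Its columns give no value for a sample or a cell type, and its score was above 0 for 0 peaks. The counts below therefore have no replicate error, no test and no known depth, and which of the 6 cell types opened a given peak, and the identity of the sorted cells by their own marker genes, could not be read from it.

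Krüppel-like factors are transcription factors that end in a row of zinc fingers and bind GC-rich or CACCC letters in DNA. They share that binding part, and differ mainly in the part of the protein that recruits cofactors. By textbook classes, Klf2, Klf4, Klf5, Klf6 and Klf7 fall in a group that binds histone acetyltransferases and often activates genes, Klf3 and Klf12 bind the corepressor CtBP, and Klf9, Klf10 and Klf13 bind the corepressor SIN3A. In blood, Klf2 is known for holding naive T cells quiescent and for their exit from the thymus, Klf4 for monocyte differentiation, and Klf3 as a repressor that is itself a target of Klf1 in red cells.

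All 10 genes had more peaks than the median gene name of the list, and almost all of the peaks lay away from the promoter. Of the 163 peaks, 10 were centred at most 500 bp from the transcription start site (TSS) and are called promoter peaks here, and 153 were distal. Promoter peaks made up 6.13% of the KLF peaks and 15.6% of all peaks of the list. The lowest count of a KLF gene was 6, at Klf9, and 24.5% of all gene names had at least that many. The median was 16 peaks per KLF gene, 15 of them distal, against a median of 3 peaks, 2 of them distal, over all names. A promoter peak was present at 9 of the 10 genes. It was present at 64.5% of all gene names, at 70.9% of protein-coding names and, counted from a curated RefSeq start whether or not the gene is in the list, at 60.3% of protein-coding genes. The share of the KLF genes was above each of these, over only 10 genes. Klf12 was the gene with no promoter peak.

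**Figure D1:**
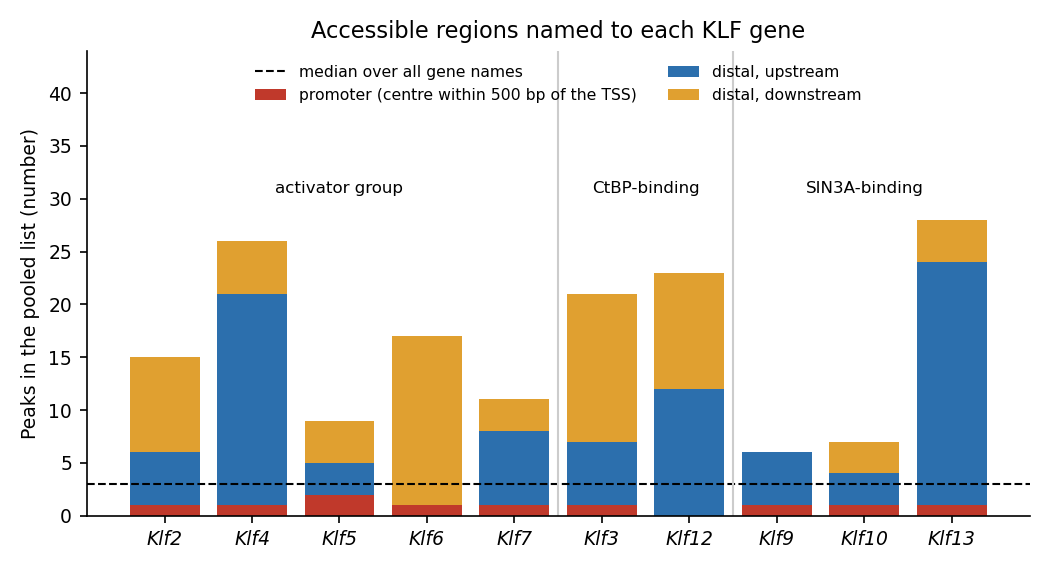
Number of peaks (vertical axis) named to each of the 10 KLF genes, grouped by the cofactor class of the protein. Each bar is split into promoter peaks and distal peaks upstream and downstream of the TSS, and the dashed line is the median of 3 over all gene names. All 10 bars rise above the line, from 6 at Klf9 to 28 at Klf13.

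The cofactor classes overlapped in the count plot, with 9 to 26 peaks per gene in the activator group, 21 and 23 in the CtBP-binding group and 6 to 28 in the SIN3A-binding group. Klf13 had the most peaks, 28, followed by Klf4 with 26, Klf12 with 23, Klf3 with 21, Klf6 with 17, Klf2 with 15, Klf7 with 11, Klf5 with 9, Klf10 with 7 and Klf9 with 6. Klf13 stood at percentile 99.5 of all gene names by number of peaks, and Klf9 at percentile 78.0. The 5 genes of the activator group held 78 peaks, the 2 CtBP-binding genes 44 and the 3 SIN3A-binding genes 41, of which Klf13 alone gave 28. The distance of the distal peaks differed between genes of 1 class. Klf12 supplied all 17 peaks beyond 100 kb of the CtBP-binding group, and Klf3 none. In the activator group Klf4 supplied 16 of 31 and Klf2 none, and in the SIN3A-binding group 3 of 38 were that far, 2 at Klf13 and 1 at Klf9.

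At the promoters, 9 of the 10 peaks were centred upstream of the TSS, against 57.6% of all promoter peaks. In the activator group, the promoter peak of Klf2 (chr8:72318745-72319243, mm10) was centred 68 bp upstream of the TSS, and that of Klf4 (chr4:55532497-55532995) 271 bp upstream. Klf6, a ubiquitous early response gene of many cell types, had its promoter peak at chr13:5861108-5861606, 132 bp upstream. Klf7, best known for its part in neurons, had its promoter peak at chr1:64121629-64122127, 489 bp upstream and so just inside the limit of 500 bp. Klf5, which acts in gut epithelium and in embryonic stem cells, was the single member with 2 promoter peaks. The first (chr14:99298343-99298841) lay 99 bp upstream of the TSS and the second (chr14:99298920-99299418) 478 bp downstream, in exon 1 of 4, where its centre was 15 bp from another TSS in the GENCODE annotation.

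In the CtBP-binding group, the Klf3 promoter peak (chr5:64803010-64803508) was 264 bp upstream. In the SIN3A-binding group, the promoter peaks of Klf9 (chr19:23140843-23141341), Klf10 (chr15:38300590-38301088) and Klf13 (chr7:63938832-63939330) were 134, 128 and 166 bp upstream. Klf9 is known as a gene induced by glucocorticoids, Klf10 as an early gene of TGF-β signalling, and Klf13 as an activator of Ccl5 in T cells. The distal peaks nearest to the limit were those of Klf10, 701 bp from a second curated start of that gene, and of Klf13, 765 bp upstream.

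The KLF promoters were rich in G and C. The promoter peaks held 64.5 to 79.2% G and C, with a median of 70.1%, against a median of 63.3% over all promoter peaks. The ratio of observed to expected CpG, which is near 1 where CpG has not been lost, ran from 0.758 to 0.983, with a median of 0.881, against 0.778 over all promoter peaks. By their bases (G and C above 50% and a ratio above 0.6), 10 of 10 passed as CpG island sequence, against 74.8% of all promoter peaks. The annotation itself named a CpG island at 0 of the 10, against 3.44% of all promoter peaks, and it names none at any of the 11993 peaks it classes as promoter or the 1928 it classes as exon. The GC box shared by KLF and SP proteins (CCCCNCCC, either strand) was found in 8 of the 10 promoter peaks and in 58.9% of all. In the central 200 bp of the peaks it was found in 4 of 10, against 39.2%. Counted per gene, Klf3 held 9 such boxes, Klf4 held 5, Klf2 held 4, Klf5 and Klf10 held 3 each, Klf13 held 2 and Klf7 held 1, and Klf6 and Klf9 held 0. The CACCC box, searched as the exact letters CCACACCC on either strand, was found in 0 of the 10, against 5.77% of all promoter peaks. With 1 mismatch allowed it was found in 7 of the 10, against 64.6%. Over only 10 peaks, the count of 0 does not show a lack of such letters.

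The upstream part of 4 promoter peaks is printed here, those of the genes with the most boxes (Klf3 and Klf4), the most distal peaks (Klf13) and the fewest (Klf9). Each is 200 bases of the RefSeq genome sequence of GRCm38 (mm10), on the strand of the gene and upstream of its annotated starts there, with GC boxes in capitals. The Klf3 stretch (chr5:64803188-64803387, plus strand) holds 4 of the 9 boxes, the Klf4 stretch (chr4:55532497-55532696, minus strand) all 5, with the first pair overlapping, the Klf13 stretch (chr7:63938916-63939115, minus strand) both, and the Klf9 stretch (chr19:23141026-23141225, plus strand) none.
Klf3: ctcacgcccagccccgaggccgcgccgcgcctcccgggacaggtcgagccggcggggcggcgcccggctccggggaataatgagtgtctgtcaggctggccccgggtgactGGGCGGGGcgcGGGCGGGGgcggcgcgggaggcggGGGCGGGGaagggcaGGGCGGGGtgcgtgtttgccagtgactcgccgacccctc
Klf4: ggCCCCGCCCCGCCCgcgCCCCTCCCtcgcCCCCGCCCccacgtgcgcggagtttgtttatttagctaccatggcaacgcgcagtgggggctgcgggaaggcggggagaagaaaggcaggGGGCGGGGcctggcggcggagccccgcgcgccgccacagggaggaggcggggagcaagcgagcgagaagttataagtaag
Klf13: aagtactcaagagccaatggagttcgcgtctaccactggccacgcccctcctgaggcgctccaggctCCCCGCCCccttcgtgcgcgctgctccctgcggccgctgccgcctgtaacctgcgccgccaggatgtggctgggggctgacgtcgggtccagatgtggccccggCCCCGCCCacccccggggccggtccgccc
Klf9: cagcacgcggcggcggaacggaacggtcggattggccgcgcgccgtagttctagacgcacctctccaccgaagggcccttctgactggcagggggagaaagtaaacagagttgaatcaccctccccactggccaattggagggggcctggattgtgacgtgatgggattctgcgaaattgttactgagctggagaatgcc

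The other motifs searched were the letters bound by factors of blood lineages and of signalling. Each had exact matches in at most 2 of the 10 KLF promoter peaks. FOXO and AP-1 were above the share of the list and the others below it, and over so few peaks a low count is not read as a lack. The letters AGATAA of GATA factors, ETS (AGGAAGT), RUNX (AACCACA), the CTCF core (CCACNAGGG) and the SRF CArG box had matches in 0 of the 10, against 8.66%, 12.6%, 5.88%, 2.95% and 1.48% of all promoter peaks. CEBP (TTNCNNAA) was matched in 1, at Klf6, against 38.7%, and AP-1 (TGANTCA) in 1, at Klf9, against 6.8%. The E-box CAGCTG was matched in 2, at Klf4 and Klf9, against 26.1%, and FOXO (GTAAACA) in 2, at Klf7 and Klf9, against 3.42%. The Klf9 promoter peak, with no GC box, thus held an E-box, an AP-1 and a FOXO match. A match is a run of letters and not a bound site, and no match says only that these letters are not in the peak.

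**Figure D2:**
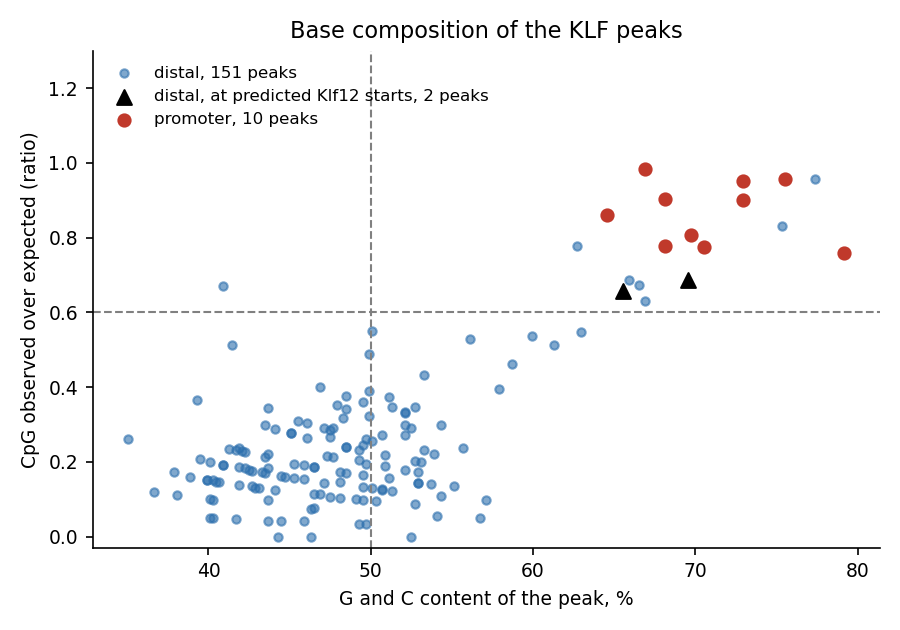
G and C content of each KLF peak in percent (horizontal axis) against its ratio of observed to expected CpG (vertical axis); dashed lines mark 50% and 0.6. The 10 promoter peaks (red) lie at 64.5 to 79.2% and 0.758 to 0.983, the 2 distal peaks at predicted Klf12 starts (black triangles) lie between 65.5 and 69.5%, and most other distal peaks lie below a ratio of 0.6.

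Klf12, a repressor first described at the AP-2α promoter, was the exception at the promoter. Its curated RefSeq transcript starts at chr14:100149796, on the minus strand, and the nearest peak was 37836 bp away, in intron 1 of 6 (chr14:100111711-100112209). Farther upstream, 2 of the peaks that the annotation classed as intergenic lay at other starts of Klf12. The peak at chr14:100284455-100284953, 134908 bp upstream of the curated TSS, was centred 25 bp from a GENCODE start of Klf12 and 129 bp from a start shared by 4 predicted RefSeq models. The peak at chr14:100285727-100286225, 136180 bp upstream, was centred 85 bp from the start of 3 further predicted models and carried the CpG island label. Its nearest GENCODE start was not one of Klf12 but that of the long non-coding RNA Gm41231, 189 bp away. Which of these genes the peak belongs to was not tested. The bases of these 2 peaks resembled those of the promoter peaks in the composition plot, with 65.5% and 69.5% G and C. Their CpG ratios were 0.658 and 0.687, both below the lowest of the 10 promoter peaks. Counted from the predicted models, Klf12 had these 2 promoter peaks in place of 0. Counted from GENCODE it also had 2, the first of these and 1 peak inside the gene. The 200 bases upstream of the longer models (chr14:100285892-100286091, minus strand, GC box in capitals) are printed for comparison with the promoters above. This stretch was chosen after the values were seen.
Klf12: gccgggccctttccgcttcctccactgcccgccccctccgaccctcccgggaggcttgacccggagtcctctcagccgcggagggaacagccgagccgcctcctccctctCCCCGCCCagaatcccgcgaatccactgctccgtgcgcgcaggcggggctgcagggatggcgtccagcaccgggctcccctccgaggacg

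The remaining 21 peaks of Klf12 were spread thinly over a large region. Of its 23 peaks, 12 were upstream and 11 downstream of the curated TSS, and 17 were over 100 kb away. Its own introns held 9, with 1, 2, 1, 1, 2 and 2 in introns 1 to 6. The largest run of Klf12 peaks with centres at most 12.5 kb apart had 3 members, over 11.9 kb in introns 4 and 5, at 206388, 216144 and 217750 bp from the TSS. The first of these 3 (chr14:99943159-99943657) was centred 300 bp from a GENCODE start of a shorter Klf12 transcript. The farthest peak of the gene (chr14:100485447-100485945) was 335900 bp upstream, towards Prr30.

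Klf5 is the downstream neighbour of Klf12, with 851105 bp between their starts. The interval held 16 peaks centred between both starts, 11 named to Klf12 and 5 to Klf5. Klf5 had 3 upstream and 4 downstream distal peaks. The nearest (chr14:99279065-99279563) was 19377 bp upstream and the farthest (chr14:99616966-99617464) was 318524 bp downstream. After its promoter pair, no Klf5 peak was found within the gene or in the 150 kb downstream of the TSS, and the next peaks were at 150576, 151321 and 173608 bp.

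**Figure D3:**
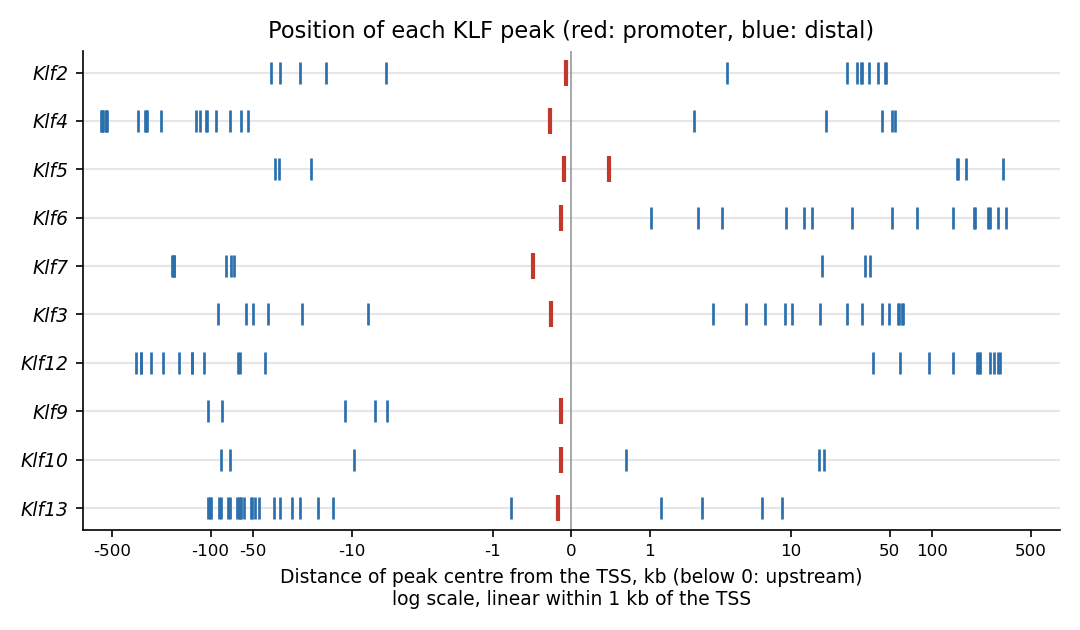
Distance of each KLF peak from the TSS in kb (horizontal axis, log scale that is linear within 1 kb of the TSS), with upstream to the left and 1 row per gene; red marks are promoter peaks and blue marks distal peaks. Klf6 has no distal mark to the left and Klf9 none to the right, Klf4 reaches 592 kb upstream, and Klf13 fills the stretch from 13.5 to 104 kb upstream.

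The distal peaks of the 10 genes were farther from the TSS than those of the list as a whole. Their median distance was 59.1 kb, against 22.3 kb. Within 10 kb lay 21 of 153 (13.7%), against 28.9% of all distal peaks, and beyond 100 kb lay 51 (33.3%), against 13.0%. They were intergenic in 114 cases (74.5%, against 44.6%) and intronic in 35 (22.9%, against 48.0%). Upstream of the TSS lay 84 (54.9%, against 41.7%). The direction varied from gene to gene, as the position plot shows, from 0 of 16 upstream at Klf6 to 5 of 5 at Klf9.

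Klf13 had the largest run of peaks. Of its 27 distal peaks, 23 lay upstream and 4 in its single intron, which is 46169 bp long. Between 13.5 and 86.4 kb upstream, 19 peaks followed each other with gaps of at most 12.5 kb, over 73.5 kb (chr7:63952160-64025611), with a median gap of 3086 bp and a smallest gap of 548 bp. A run of 19 or more peaks of 1 name was found for 31 of the 19040 names, or 0.163%. In order from the TSS, these 19 peaks were centred at 13494, 17436, 23232, 26451, 32305, 35634, 45582, 48077, 51029, 51577, 58037, 60469, 61792, 62831, 65196, 73063, 75518, 83985 and 86447 bp upstream. All 19 were classed as intergenic, and 2 were centred within 500 bp of a GENCODE start of a long non-coding RNA, 93 bp from Gm45052 and 139 bp from Gm32633. The farthest Klf13 peak (chr7:64043016-64043514) was 104350 bp upstream, and the nearest distal peak (chr7:63939431-63939929) 765 bp upstream.

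Klf3 had the next largest run, 16 peaks over 70.0 kb (chr5:64795648-64865667), from 1 peak upstream of the promoter to 61.9 kb downstream. Its first intron of 12943 bp held 5 of them, and 1 of these, 9029 bp downstream of the TSS (chr5:64812303-64812801), was centred 168 bp from a GENCODE start of a shorter Klf3 transcript. The nearest distal peak (chr5:64806053-64806551) was 2779 bp downstream, in the same intron, and the farthest (chr5:64714633-64715131) 88641 bp upstream. In all, 14 of the 20 distal peaks of Klf3 were downstream.

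Klf2 is a small gene of 2593 bp, and most of its distal peaks lay in its neighbour. Of its 9 downstream peaks, 8 were inside introns of Eps15l1, a gene for an endocytic adaptor protein that is read towards Klf2 from the other strand. They formed a run of 8 over 22.6 kb, from 24.9 to 47.0 kb downstream of the Klf2 start. The nearest distal peak (chr8:72322333-72322831) was at the end of the transcript, 3520 bp from the TSS, and the farthest (chr8:72365765-72366263) was the last of that run, 46952 bp away. All 14 distal peaks of Klf2 were within 50 kb. The first peak of the run, 24879 bp downstream, was 1 of the 2 distal KLF peaks with matches to 5 of the 8 lineage motif families (GATA, ETS, RUNX, CEBP, E-box, AP-1, CTCF core and FOXO). The other was the Klf10 peak 9692 bp upstream of the TSS. As 1.32% of all distal peaks also held 5 families, these peaks are shown only as examples of a mixed site. Their central 200 bases are printed (Klf2, chr8:72343841-72344040, plus strand, and Klf10, chr15:38310303-38310502, minus strand), with the matches in capitals, which in this central part are ETS, RUNX, CEBP and E-box for Klf2 and GATA, ETS and E-box for Klf10.
Klf2: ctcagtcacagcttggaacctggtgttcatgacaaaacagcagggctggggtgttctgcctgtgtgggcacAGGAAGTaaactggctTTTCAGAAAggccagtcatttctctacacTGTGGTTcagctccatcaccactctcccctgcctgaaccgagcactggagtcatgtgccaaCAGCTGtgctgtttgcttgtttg
Klf10: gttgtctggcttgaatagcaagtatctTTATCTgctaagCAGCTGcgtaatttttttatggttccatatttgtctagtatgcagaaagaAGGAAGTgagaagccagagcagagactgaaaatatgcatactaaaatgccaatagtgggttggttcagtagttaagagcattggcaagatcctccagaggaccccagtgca

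Klf4 reached the longest distances, followed by Klf12 and Klf6. At Klf4, 20 of 25 distal peaks were upstream, where the next protein-coding start, Actl7b, is 1209 kb away. Of these, 16 were beyond 100 kb and 7 beyond 500 kb, which is 4.58% of the distal KLF peaks, against 0.689% of all distal peaks. The 7 lay at 538315 to 592295 bp, and the last 4 of them, at 581448, 585995, 587594 and 592295 bp, formed a run over 11.3 kb (chr4:56113674-56125019). A second run of 4 over 20.5 kb was at 106097, 107715, 118822 and 126129 bp. No run of Klf4 peaks was larger than 4. The nearest distal peak (chr4:55530167-55530665) was 2059 bp downstream, in exon 3 of 5, and 3 of the other distal peaks carried the CpG island label, at 17593 and 51853 bp downstream and 118822 bp upstream.

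At Klf6, 16 of 16 distal peaks were downstream. The first 6 of them stood with the promoter peak in a run of 7 over 14.8 kb (chr13:5861108-5875912). The first intron, of 2925 bp, held 3, centred 1016, 2187 and 3265 bp from the TSS, and the third was 76 bp from a GENCODE start of a shorter Klf6 transcript. The nearest was chr13:5862256-5862754 and the farthest (chr13:6192946-6193444) was 331706 bp downstream. The absence of upstream peaks is a matter of names, since 24 peaks on that side were named to the non-coding RNA 1700016G22Rik. All 24 passed to Klf6 when peaks were given to the nearest protein-coding start.

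Klf7 had 3 peaks in its first intron of 41565 bp, the nearest of them (chr1:64104560-64105058) 16580 bp from the TSS. Its 7 upstream peaks formed a run of 3 at 68.3 to 77.1 kb and a run of 4 over 7.63 kb at 180 to 187 kb, the last at chr1:64308516-64309014. Klf9 and Klf10 had few peaks. The 5 distal peaks of Klf9 were all upstream, 3 of them within 11.1 kb, with the nearest (chr19:23135377-23135875) 5600 bp away on a CpG island and the farthest (chr19:23036905-23037403) 104072 bp away. Klf10 had 3 upstream and 3 downstream. The nearest (chr15:38298950-38299448), in intron 1, was on a CpG island and had the highest G and C content of the distal KLF peaks, 77.3%. The farthest (chr15:38384568-38385066) was 84106 bp upstream, 164 bp from a GENCODE start of the long non-coding RNA Gm26863.

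Some distal peaks lay at starts that the annotation did not use. Of the 153, 16 (10.5%) were centred within 500 bp of a GENCODE start of any gene, against 6.88% of all distal peaks. At 6 of the 16 the start belonged to the KLF gene itself, 2 at Klf12 and 1 each at Klf3, Klf6, Klf10 and Klf13. CpG islands were named at 7 distal peaks (4.58%, against 1.98%), and 8 passed as CpG island sequence by their bases (5.23%, against 3.93%). Over all 153 distal KLF peaks the median G and C content was 47.9%, against 47.7% over all distal peaks.

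The number of peaks was also set beside how much room each gene has, and whether the count depends on that room was not tested. Between the starts of the neighbouring protein-coding genes, the region of a KLF gene spanned 181.5 kb at Klf2 to 1939 kb at Klf6, against a median of 101.2 kb over 20666 protein-coding genes with a region of at least 10 kb. Counting peaks of any name, these regions held 14.9 peaks per 100 kb at Klf2, 15.6 at Klf13 and 12.7 at Klf3, which stood at percentiles 91.8, 93.0 and 87.4 of all genes, where the median was 4.91. Klf10 had 6.67 per 100 kb. Klf7, Klf6, Klf4, Klf5, Klf9 and Klf12 had 3.93, 2.99, 2.59, 2.29, 1.94 and 1.74, all below the median. The high counts thus came in 2 forms. At Klf13, Klf3 and Klf2 the peaks were dense, and at Klf4, Klf12 and Klf6 they were many but sparse, over 1391, 1901 and 1939 kb.

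**Figure D4:**
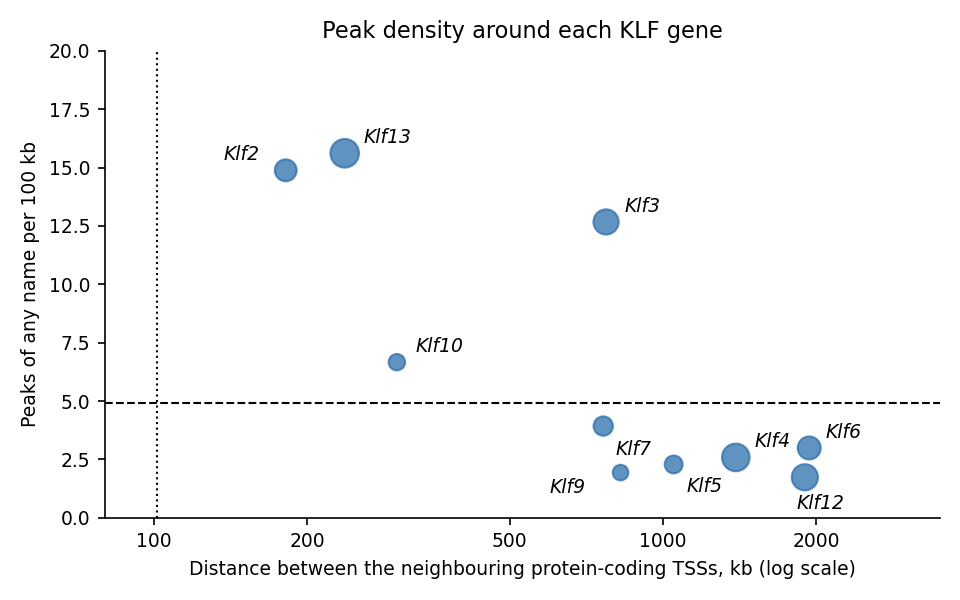
Peaks of any name per 100 kb (vertical axis) against the distance between the neighbouring protein-coding starts in kb (horizontal axis, log scale) for the 10 KLF genes, with larger points for genes with more named peaks. The dashed and dotted lines are the medians over all genes, 4.91 per 100 kb and 101.2 kb. Klf2, Klf13 and Klf3 lie at 12.7 or more per 100 kb, Klf10 just above the dashed line and the other 6 genes below it.

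The region of Klf3 shows what the names leave out. It held 98 peaks, of which 21 were named to Klf3, 21 to its upstream neighbour Tbc1d1, 9 to Tlr1 and 47 to the non-coding genes Gm3716, 1700027F09Rik and C030018K13Rik. At Klf13, 28 of 37 peaks in the region carried its name. Of the 27 distal ones, 19 were nearer to the RefSeq start of the long non-coding RNA Gm32633 than to that of Klf13. The names are thus distances, and no peak was shown to act on the gene it is named to.

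KLF proteins are known to bind the genes of other KLF proteins, and the letters they bind were searched in the distal peaks as well. The CACCC box was found in 18 of 153 (11.8%, 22 matches), against 5.9% of all distal peaks, and the GC box in 61 (39.9%, 172 matches), against 25.0%. In the central 200 bp the CACCC box was found in 10 (6.54%, against 3.33%) and the GC box in 37 (24.2%, against 12.4%). With 1 mismatch allowed the shares were high everywhere, 91 (59.5%, against 54.2%) for the CACCC box and 124 (81.0%, against 75.2%) for the GC box. With exact letters in the whole peak, either box was found in 72 (47.1%), against 29.1%, and 7 peaks held both. The CACCC matches were spread over 9 genes, with 6 peaks at Klf13, 2 each at Klf3, Klf4, Klf6 and Klf9, and 1 each at Klf2, Klf7, Klf10 and Klf12. The GC box matches were uneven, since 26 of them were in 1 peak at the end of Klf6. Each start position was counted, so matches can overlap along a run of C or G and are not all separate boxes.

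Some of the peaks with a CACCC match carried the label of an old retroviral repeat. The label belongs to the peak, and whether the matched letters fall inside the element was not tested. ERVL-MaLR elements, long terminal repeats of ancient retrovirus-like transposons, were named at 15 distal KLF peaks (9.8%, against 4.75%), 6 of them at Klf13 and 4 at Klf6. Repeats of any kind were named at 31 (20.3%, against 17.9%). Among the 15 ERVL-MaLR peaks, 7 held a CACCC box, against 9.95% of all distal peaks on such elements, and 5 held a GC box, against 17.9%. On repeats of any kind, 9 of 31 held a CACCC box, against 6.82%, and 10 held a GC box, against 20%. In peaks with no repeat label, the CACCC box was found in 9 of 122 distal KLF peaks (7.38%), against 5.7%, and the GC box in 51 of 122 (41.8%), against 26.1%. Without the labelled peaks, the CACCC share was nearer to that of the list.

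The sequences below show both kinds, each 120 bases on the strand of the gene with CACCC boxes in capitals. The first is the peak 43971 bp downstream of Klf3 (chr5:64847355-64847474, plus strand), a peak labelled with the ERVL-MaLR element ORR1B2, with 2 boxes. The second is the peak 8604 bp into the Klf13 intron (chr7:63930295-63930414, minus strand), labelled with ORR1D2, with 1 box. The third is the peak 61324 bp downstream of Klf3 (chr5:64864804-64864923, plus strand), with no repeat label, with 3 boxes, the most of any distal KLF peak. They were chosen after the matches were seen.
Klf3, ORR1B2: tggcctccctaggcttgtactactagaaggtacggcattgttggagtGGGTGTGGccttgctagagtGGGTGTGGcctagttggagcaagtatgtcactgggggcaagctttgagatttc
Klf13, ORR1D2: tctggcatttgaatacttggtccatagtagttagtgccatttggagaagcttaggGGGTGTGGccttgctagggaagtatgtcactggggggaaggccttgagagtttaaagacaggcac
Klf3, no repeat: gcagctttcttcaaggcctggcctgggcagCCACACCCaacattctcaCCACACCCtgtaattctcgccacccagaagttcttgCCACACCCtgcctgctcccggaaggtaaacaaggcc

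The other motifs lay on either side of the list. GATA letters, bound by Gata1 and Gata2 in stem and erythroid cells, were found in 38 (24.8%, against 26.9%), and ETS letters, bound by Spi1 and its relatives, in 51 (33.3%, against 27.0%). RUNX was found in 26 (17.0%, against 18.0%), CEBP in 107 (69.9%, against 66.7%), the E-box in 48 (31.4%, against 30.4%) and AP-1 in 22 (14.4%, against 16.9%). The CTCF core was found in 4 (2.61%, against 4.31%) and FOXO in 10 (6.54%, against 7.25%). The SRF CArG box was found in 8 (5.23%, against 2.47%), of which 4 were at Klf6. By gene, the examples here were picked after the values were seen, and each rests on few peaks. An ETS match was held by 7 of 10 distal peaks of Klf7, and an AP-1 match by 4 of 6 of Klf10. A GATA match was held by 8 of 23 of Klf12 and 4 of 7 of Klf5. A CEBP match, a loose pattern with 3 free positions, was held by 16 of 16 of Klf6. Other genes had none, as for GATA in 0 of 5 at Klf9 and RUNX in 0 of 10 at Klf7.

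**Figure D5:**
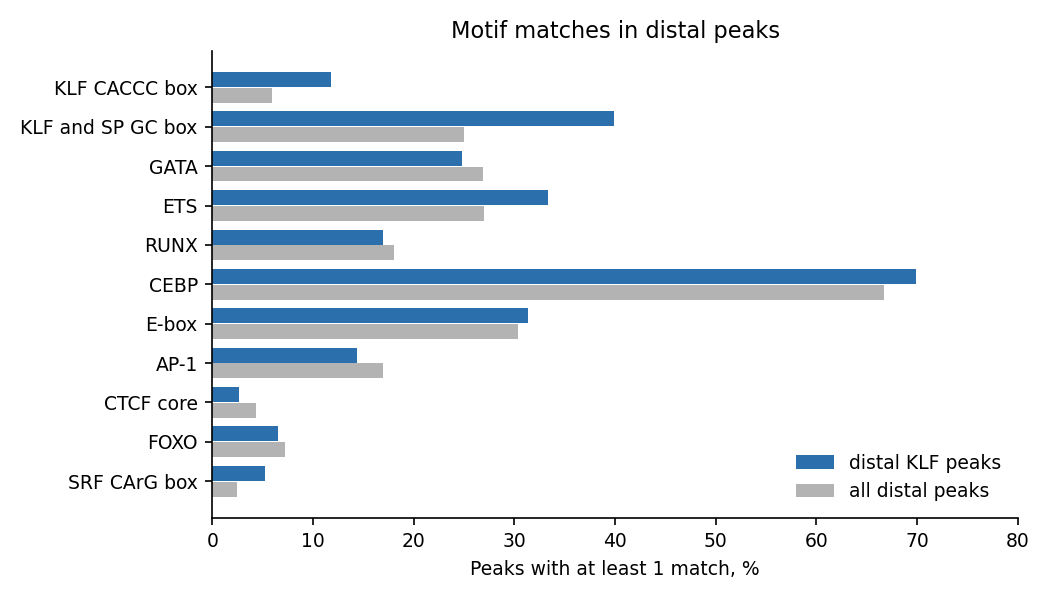
Share of distal peaks with at least 1 match to each of 11 motifs in percent (horizontal axis), for the 153 distal KLF peaks (blue) and the 71072 distal peaks of the whole list (grey). The bars are furthest apart for the GC box, at 39.9 and 25.0%, and nearly equal for the E-box, at 31.4 and 30.4%.

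The other KLF genes, the SP genes and the cofactor genes had lower medians than the 16 peaks of the 10 KLF genes, but single genes overlapped with them. The members and these lists were chosen with earlier results of these data known, so the difference is a description only. The 7 other Klf genes had a median of 3 peaks, with 7 at Klf16, 6 at Klf8 and at Klf11, 3 at Klf1, 1 at Klf15 and 0 at Klf14 and Klf17. The 9 Sp genes, which bind the same GC box, had a median of 5, with 18 at Sp3. A promoter peak was present at 9 of these 16 genes, which include Klf14 and Klf17, not among the names of the list. The share was 70.9% of protein-coding names of the list, and 60.3% of protein-coding genes whether or not in the list. The 12 cofactor genes, among them Ctbp1, Ctbp2, Sin3a, Sin3b, Ep300 and Crebbp, had a median of 2.5 peaks, up to 10 at Ep300. A promoter peak was present at 12 of these 12, against the same shares. Of 12 known KLF target genes in blood, 10 had a promoter peak, again beside shares of 70.9% and 60.3%, and the median was 9 peaks. Bcl11a, a repressor of fetal globin, had 40 and S1pr1, the receptor by which T cells leave the thymus, had 34, both more than any of the 10 KLF genes. Ccl5 had 5 peaks but no promoter peak, and Ahsp, an erythroid chaperone of globin, had 0.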

How the data were processed

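ATAC-seq peaks of 12 samples, 2 replicates of each of 6 blood cell types, were read from the pooled list that the authors deposited. By the study's methods, reads were aligned to mm10, reproducible peaks were called per cell type, the lists were joined and reduced to 84243 peaks that do not overlap, each 499 bp long, and annotated with HOMER (4.10.2 in the submitters' processing notes). The deposited score column is 0 in every row, and 0 columns hold values per sample, so no group was compared and no test was run; read depth is unknown. Every number is a count or a base-composition value over this list.

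KLF peaks were the rows with 1 of the 10 gene names; 7 peaks had no gene name. HOMER's distance to the nearest TSS gave promoter peaks (within 500 bp) and distal peaks (all others). All 10 genes matched RefSeq release 108 of GRCm38, from which starts, introns, neighbours and sequence were taken; GENCODE M21 gave further starts. Motif letters were searched on both strands of the whole peak. The peaks given by position were each promoter peak, the nearest and farthest distal peak of each gene, and the largest clusters of the genes with the most peaks; other peaks were named after their values were seen. The members and gene lists were chosen with earlier results of these data known, and the cofactor classes were added afterwards. A percentile is the share of genes with a lower value, with ties counted at their middle. Scripts were tested on simulated data with Python 3.11.15, numpy 2.4.6, pandas 2.3.3 and pysam 0.24.0. Alternatives were other promoter limits, distances, assignment rules, starts, motif windows and cluster gaps.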

Additional observations from a re-analysis of the deposited data

How the results depend on the processing

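The 10 promoter peaks became 2 with a limit of 100 bp, in 2 genes in place of 9, and 16 when GENCODE starts were used, an alternative chosen after seeing the data. The 153 distal peaks became 65 within 50 kb and 337 under basal plus extension domains, where the Klf3 count went from 20 to 94. Giving peaks to the nearest curated RefSeq start left 126, with Klf13 falling from 27 to 8 and Klf5 from 7 to 3, and giving them to the nearest protein-coding start gave 217. Promoter peaks with any of the 11 motifs went from 10 to 5 in the central 200 bp. CpG islands were at 0 promoter peaks by HOMER's label and at 10 by sequence, where HOMER wrote the CpG label only at peaks it classed as intron or intergenic. The largest Klf13 cluster had 19 peaks, 6 with gaps of at most 5000 bp and 28 with gaps up to 25000 bp. Of the recomputed totals, 8 moved beyond 1.5 times their value and 24 stayed within it. Values by gene or by motif were less stable, as 65 of them moved that far and 49 did not. Among those that moved were the distal counts of 7 genes under basal plus extension domains and of 8 genes within 50 kb. No paired analysis was possible because the list has no columns per replicate. Depth and cell type limit every count, as neither is in the list.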
